A study of Mus musculus with 6 samples.

Results

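Integrins are paired receptors, each made of an α and a β chain, that hold lymphocytes to other cells and to the matrix around them. The integrins described here are the chains of T cells in the gut lining, chosen by gene symbol: Itgae, Itgb7, Itga4, Itgb1, Itgal, Itgb2 and Itgax. All 7 genes were on the array and had 12 of its 12422 probe sets that are not controls. A probe set is a group of short probes for 1 transcript. Of the 12 probe sets, 11 were bright enough to be tested, among 8301 tested in all.

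Affymetrix arrays were used to profile messenger RNA of intraepithelial lymphocytes, T cells that sit between the epithelial cells of the gut. The cells came from the small intestine of untreated C57BL/6 mice younger than 8 weeks and were sorted straight after isolation into 3 subsets. TCRab CD8aa cells carry the αβ T cell receptor and the CD8αα homodimer, TCRgd CD8aa cells carry the γδ receptor and CD8αα, and TCRab CD8ab cells carry the αβ receptor and the CD8αβ heterodimer. Each of 2 experiments, done on separate occasions, pooled cells of 20 mice, sorted all 3 subsets from that pool and used 1 array per subset, so each subset had 2 arrays. Every array is thus a pool, and the spread between arrays is not that between mice. The titles of the TCRgd CD8aa samples write TCRgb, while their source names write TCRgd.

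The sort markers followed the source names. Cd8b1, the β chain of CD8, had signals of 29.5 and 182 in TCRab CD8aa cells, 28.1 and 763 in TCRgd CD8aa cells, and 17647 and 27591 in TCRab CD8ab cells. Trgv4, a variable segment of the γ chain, had signals of 8289 and 6261 in TCRab CD8aa cells, 35231 and 19622 in TCRgd CD8aa cells, and 3015 and 1714 in TCRab CD8ab cells. One array stood apart: the summed signal of 13 enterocyte markers was 27035 on the TCRgd CD8aa array of experiment 2 and 1299 to 2618 on the other 5 arrays, and that of 7 B and plasma cell markers was 5312 against 785 to 1457. Markers of NK cells moved with the CD8aa subsets: 4 of 5 were on the array, with a summed signal of 25392 and 19762 in TCRab CD8aa cells, 22446 and 22662 in TCRgd CD8aa cells, and 4281 and 5493 in TCRab CD8ab cells. Almost all of it was Klrd1 and Tyrobp, while the defining Ncr1 had a signal of at most 19.9. The sum of 7 mast cell markers was 2865 and 1631 in TCRab CD8aa cells, 3001 and 2073 in TCRgd CD8aa cells, and 1484 and 828 in TCRab CD8ab cells. Kit was the brightest of the 7 on each array. The mast cell genes Mcpt1 and Mcpt2 had signals of 332 and 245 on the TCRgd CD8aa array of experiment 2. On the other arrays they had at most 57.5 and 23.8. Whether such other cells were present was not tested, nor was their part in the values below. The experiments also differed in the 3′ to 5′ ratio of control probe sets, and the reason for this was not tested. Actin control probe sets gave 3′ signals that were 40.4 to 52.2 times the 5′ ones on the arrays of experiment 2 and 1.41 to 1.76 times on those of experiment 1. Each signal below is given with experiment 1 first within a subset.

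The αEβ7 integrin (CD103, chains Itgae and Itgb7) binds E-cadherin on epithelial cells and holds intraepithelial lymphocytes in the epithelium. The α4β7 integrin, which shares the β7 chain, binds MAdCAM-1 on gut vessels and directs lymphocytes to the intestine, and α4β1 binds VCAM-1 and fibronectin. The αLβ2 integrin (LFA-1, chains Itgal and Itgb2) binds ICAM-1 and ICAM-2, and αXβ2 (CD11c, chains Itgax and Itgb2) is best known from dendritic cells but is also carried by some activated and intestinal T cells.

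Promoter sequences were listed for 4 of the 7 genes, Itgb7, Itga4, Itgb1 and Itgax, in a RefSeq table of the mouse build GRCm38.p6, from 250 bases before to 50 bases after the start of the gene. Those of Itga4 and Itgax are shown because signals of these α chains lay on opposite sides of TCRab CD8ab cells in TCRgd CD8aa cells. The Itga4 window lies at chr2:79255176-79255475 on the plus strand and the Itgax window at chr7:128129300-128129599 on the plus strand.
Itga4: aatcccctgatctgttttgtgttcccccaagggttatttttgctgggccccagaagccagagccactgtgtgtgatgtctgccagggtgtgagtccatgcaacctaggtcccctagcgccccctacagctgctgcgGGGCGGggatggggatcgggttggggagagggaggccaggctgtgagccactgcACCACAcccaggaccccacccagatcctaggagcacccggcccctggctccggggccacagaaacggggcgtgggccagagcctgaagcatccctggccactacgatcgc
Itgax: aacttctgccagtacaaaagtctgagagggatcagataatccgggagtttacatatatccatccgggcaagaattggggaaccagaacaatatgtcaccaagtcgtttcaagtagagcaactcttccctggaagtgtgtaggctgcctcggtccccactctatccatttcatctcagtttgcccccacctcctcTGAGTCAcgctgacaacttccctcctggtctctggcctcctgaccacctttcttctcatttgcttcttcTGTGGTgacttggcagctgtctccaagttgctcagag
Capitals mark matches, on either strand, to 6 motifs: TGTGGT (bound by RUNX factors), CCGGAA (ETS), GGGCGG (the GC box), GAGGAA (the core of PU.1 sites), TGANTCA (AP-1) and TATAAA (the TATA box). In Itga4 the RUNX motif began 60 bases before the start, at position -60 on the minus strand, and the GC box at -114. In Itgax the RUNX motif began at position 14 after the start and the AP-1 motif at -56. The Itgb1 window held the ETS motif at position 3, the GC box at -151 and the GAGGAA motif at -9, and the Itgb7 window held the GAGGAA motif at position 3 on the other strand. The matches did not overlap each other. Of 32851 promoters in the table, 16.8% held the RUNX motif, 35.7% the GC box, 28.3% GAGGAA, 14.9% the ETS motif, 7.81% the AP-1 motif and 13.6% the TATA box. A match of this length describes the letters of the window and is not evidence of binding.

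**Figure D1:**
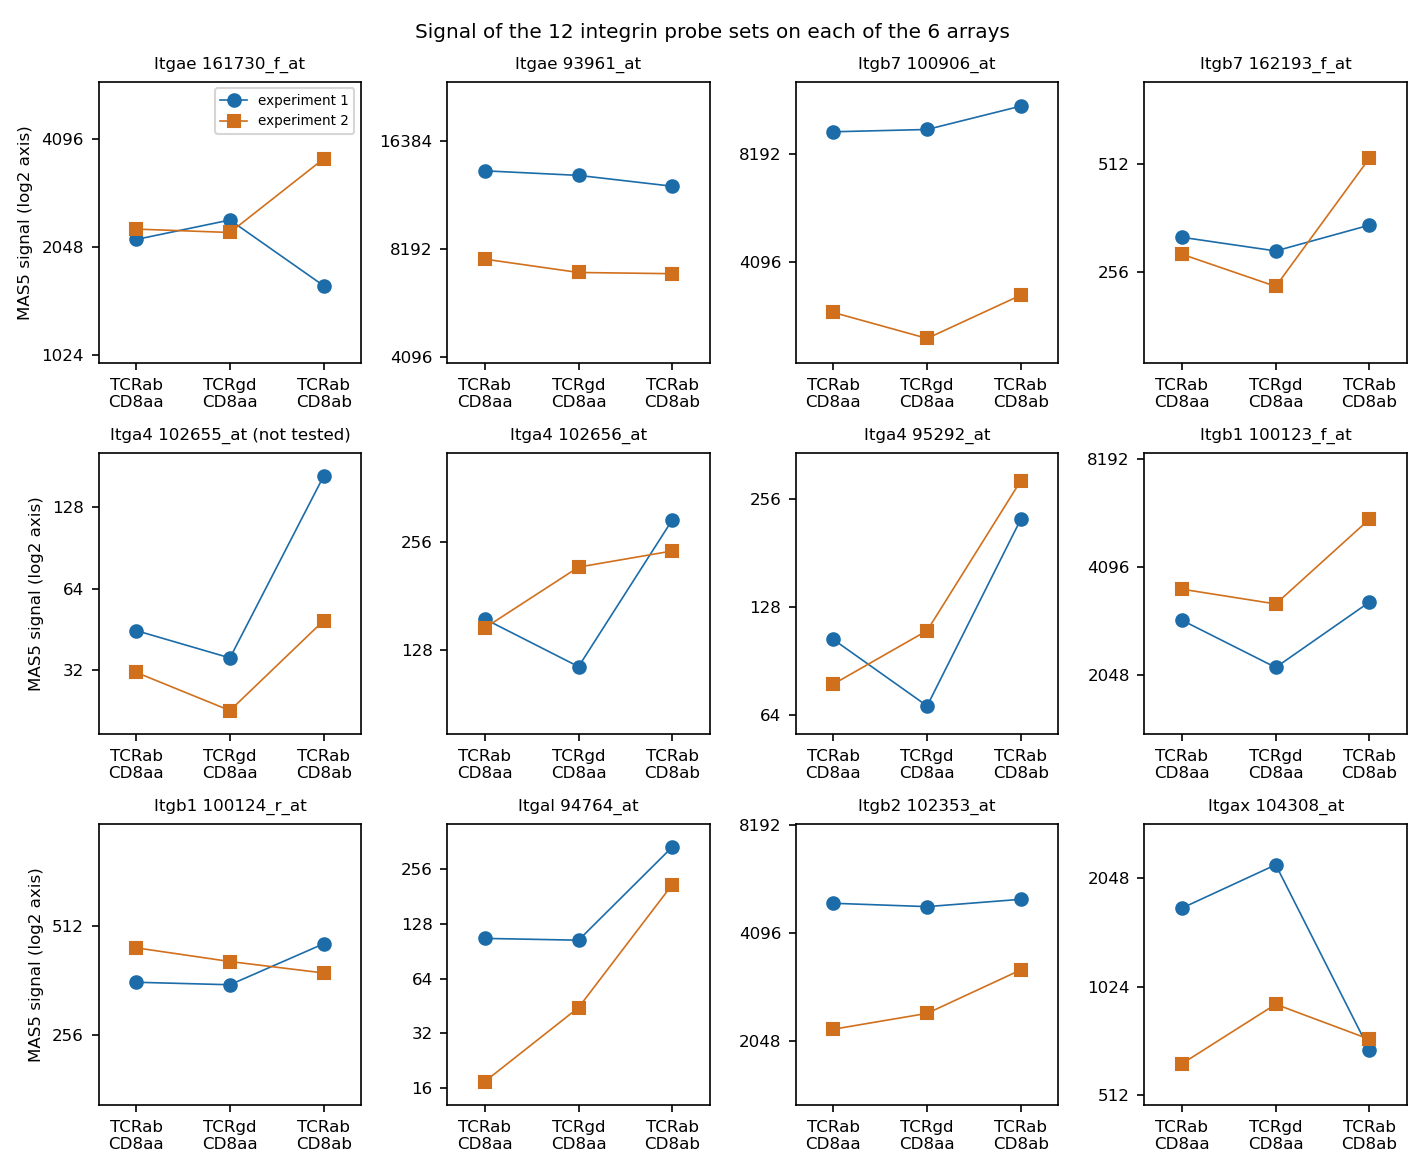
MAS5 signal (log2 axis) of the 12 integrin probe sets in the 3 subsets, with a circle for experiment 1 and a square for experiment 2 and 1 point per array. The 2 experiments lie apart for Itgae 93961_at, Itgb7 100906_at and Itgb2 in all 3 subsets, while both TCRab CD8ab arrays lie above all 4 CD8aa arrays for Itga4 95292_at and Itgal.

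Differences were taken between log2 signals and tested with limma over all 8301 probe sets, with Benjamini-Hochberg adjustment and a threshold of 0.05. The fit without a term for the experiment called 0 probe sets in each of the 3 comparisons (0.0% of those tested), and 0 of the 11 integrin probe sets. At an unadjusted p under 0.05 that fit passed 188 probe sets (2.26%) and 2 integrin probe sets for TCRab CD8aa against TCRab CD8ab cells, 168 (2.02%) and 1 for TCRgd CD8aa against TCRab CD8ab cells, and 34 (0.41%) and 0 for TCRgd CD8aa against TCRab CD8aa cells. The fit with the experiment as a block called 68 probe sets (0.819%) between TCRab CD8aa and TCRab CD8ab cells. It called 45 (0.542%) between TCRgd CD8aa and TCRab CD8ab cells, and 2 (0.0241%) between TCRgd CD8aa and TCRab CD8aa cells. None of the 11 integrin probe sets was among them in any of the 3 comparisons. Standard errors, adjusted p-values and 95% intervals below come from limma with the block, whose standard error pools all 6 arrays. The first 2 comparisons share the TCRab CD8ab arrays and are therefore not independent.

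Itgae, the αE chain, was bright and close in level in all 3 subsets by its brighter probe set. For Itgae 93961_at, TCRab CD8aa cells had signals of 13523 and 7683, TCRgd CD8aa cells 13133 and 7054, and TCRab CD8ab cells 12252 and 6999. All 3 subsets had their higher value in experiment 1, and within each experiment the 3 arrays lay close together. TCRab CD8aa cells differed from TCRab CD8ab cells by 0.14 ± 0.28 (log2 ± SE, adjusted p = 0.9002), a fold of 1.10 with a 95% interval of 0.711 to 1.70. For TCRgd CD8aa cells the difference was 0.06 ± 0.28 from TCRab CD8ab cells (adjusted p = 0.976; fold interval 0.672 to 1.61) and -0.08 ± 0.28 from TCRab CD8aa cells (fold interval 0.610 to 1.46). The order TCRab CD8aa, TCRgd CD8aa, TCRab CD8ab from high to low held in both experiments, but no step of it exceeded the spread.

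The other Itgae probe set gave another pattern. Itgae 161730_f_at had signals of 2150 and 2298 in TCRab CD8aa cells, 2436 and 2249 in TCRgd CD8aa cells, and 1599 and 3606 in TCRab CD8ab cells. The 2 TCRab CD8ab arrays were the lowest and the highest of the 6, so the groups overlapped and the sign of the difference turned between experiments. The difference of TCRab CD8aa from TCRab CD8ab cells was 0.43 in experiment 1 and -0.65 in experiment 2, and that of TCRgd CD8aa cells was 0.61 and -0.68. On Affymetrix arrays the ending _f_at marks a probe set whose probes may match several related sequences.

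Itgb7, the β chain shared by αEβ7 and α4β7, was also close in level across subsets. Itgb7 100906_at had signals of 9419 and 2962 in TCRab CD8aa cells, 9559 and 2509 in TCRgd CD8aa cells, and 11102 and 3310 in TCRab CD8ab cells. TCRab CD8ab cells had the highest signal within each experiment, by a small margin against the gap between experiments. The log2 difference from TCRab CD8ab cells was -0.20 ± 0.28 in TCRab CD8aa cells (adjusted p = 0.849; fold interval 0.564 to 1.35) and -0.31 ± 0.28 in TCRgd CD8aa cells (adjusted p = 0.804; fold interval 0.523 to 1.25). TCRgd CD8aa cells differed from TCRab CD8aa cells by -0.11 ± 0.28.

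The dimmer Itgb7 162193_f_at had signals of 321 and 288 in TCRab CD8aa cells, 294 and 234 in TCRgd CD8aa cells, and 347 and 532 in TCRab CD8ab cells. Both TCRab CD8ab arrays lay above all 4 CD8aa arrays, and most of the gap came from experiment 2. The log2 difference from TCRab CD8ab cells was -0.50 ± 0.39 in TCRab CD8aa cells (adjusted p = 0.708) and -0.71 ± 0.39 in TCRgd CD8aa cells (adjusted p = 0.692).

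Itga4, the α4 chain, had 3 probe sets, and in all 3 both TCRab CD8ab arrays were above all 4 CD8aa arrays. Itga4 95292_at had signals of 104 and 78.1 in TCRab CD8aa cells, 67.9 and 110 in TCRgd CD8aa cells, and 225 and 287 in TCRab CD8ab cells. The CD8aa subsets overlapped each other and lay well below TCRab CD8ab cells in both experiments. TCRab CD8aa cells differed from TCRab CD8ab cells by -1.50 ± 0.50 (fold 0.355, 95% interval 0.163 to 0.772; unadjusted p = 0.0145, adjusted p = 0.359). In TCRgd CD8aa cells the difference from TCRab CD8ab cells was -1.56 ± 0.50 (fold 0.340, 95% interval 0.156 to 0.740; unadjusted p = 0.0119, adjusted p = 0.378). Between TCRgd CD8aa and TCRab CD8aa cells it was -0.06 ± 0.50, with -0.61 in experiment 1 and 0.49 in experiment 2.

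Itga4 102656_at had signals of 156 and 148 in TCRab CD8aa cells, 115 and 218 in TCRgd CD8aa cells, and 295 and 242 in TCRab CD8ab cells. The groups did not overlap, although the TCRgd CD8aa array of experiment 2 came close to the lower TCRab CD8ab array. The log2 differences from TCRab CD8ab cells were -0.81 ± 0.46 in TCRab CD8aa cells (adjusted p = 0.601) and -0.75 ± 0.46 in TCRgd CD8aa cells (adjusted p = 0.716). The third probe set, Itga4 102655_at, exceeded the filter on 1 array and was not tested. Its signals were 44.7 and 31.3 in TCRab CD8aa cells, 35.4 and 22.6 in TCRgd CD8aa cells, and 167 and 48.7 in TCRab CD8ab cells.

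Itgb1, the β1 chain that pairs with α4 and with many other α chains, had 2 probe sets. Itgb1 100123_f_at had signals of 2913 and 3554 in TCRab CD8aa cells, 2153 and 3233 in TCRgd CD8aa cells, and 3273 and 5567 in TCRab CD8ab cells. TCRab CD8ab cells had the highest and TCRgd CD8aa cells the lowest signal in each experiment, and only TCRgd CD8aa cells did not overlap with TCRab CD8ab cells. That gap was narrow, between 3233 in TCRgd CD8aa cells in experiment 2 and 3273 in TCRab CD8ab cells in experiment 1. TCRgd CD8aa cells differed from TCRab CD8ab cells by -0.69 ± 0.29 (fold 0.618, 95% interval 0.395 to 0.966; adjusted p = 0.561). TCRab CD8aa cells differed from TCRab CD8ab cells by -0.41 ± 0.29 (adjusted p = 0.676). Itgb1 100124_r_at had signals of 358 and 446 in TCRab CD8aa cells, 352 and 409 in TCRgd CD8aa cells, and 458 and 380 in TCRab CD8ab cells, which overlapped throughout.

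Itgal, the αL chain of LFA-1, showed the largest difference of the 11 tested integrin probe sets in both comparisons with TCRab CD8ab cells. Itgal 94764_at had signals of 107 and 17.4 in TCRab CD8aa cells, 104 and 44.4 in TCRgd CD8aa cells, and 339 and 211 in TCRab CD8ab cells. Both TCRab CD8ab arrays were above all 4 CD8aa arrays, and both CD8aa arrays of experiment 2 were below the signal of 56.3 used as the filter. TCRab CD8aa cells differed from TCRab CD8ab cells by -2.63 ± 0.61 (fold 0.161, 95% interval 0.0619 to 0.419; unadjusted p = 0.00191, adjusted p = 0.129). In TCRgd CD8aa cells the difference from TCRab CD8ab cells was -1.98 ± 0.61 (fold 0.254, 95% interval 0.0977 to 0.662; unadjusted p = 0.0101, adjusted p = 0.348).

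The Itgal difference between TCRab CD8aa and TCRab CD8ab cells was -1.67 in experiment 1 and -3.60 in experiment 2. Without the block, its SE was 1.00 and its adjusted p 1.00. With the block, it passed the threshold when the fit held only the 4 arrays of these subsets (adjusted p = 0.00387). The difference there was the same, -2.63, and its SE was 0.64, against 0.61 with all arrays. That lower adjusted p thus came from neither a larger difference nor a smaller SE. Without the TCRgd CD8aa array of experiment 1 or of experiment 2, the blocked difference was again -2.63, with an SE of 0.69 and 0.65. Between TCRgd CD8aa and TCRab CD8aa cells the difference was 0.66 ± 0.61, with -0.03 in experiment 1 and 1.35 in experiment 2. In these sorted pools, a lower signal from fewer cells carrying a transcript and from less of it per cell cannot be told apart.

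Itgb2, the β2 chain shared by αLβ2 and αXβ2, differed less between the subsets than Itgal. Itgb2 102353_at had signals of 4958 and 2214 in TCRab CD8aa cells, 4853 and 2451 in TCRgd CD8aa cells, and 5087 and 3238 in TCRab CD8ab cells. TCRab CD8ab cells were highest within each experiment, and the 3 arrays of experiment 1 lay close together. The log2 difference from TCRab CD8ab cells was -0.29 ± 0.29 in TCRab CD8aa cells (adjusted p = 0.777; fold interval 0.521 to 1.28) and -0.23 ± 0.29 in TCRgd CD8aa cells (adjusted p = 0.866; fold interval 0.542 to 1.33). The difference between the Itgal and the Itgb2 values was not tested.

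Itgax, the αX chain known as CD11c, had its highest signal in TCRgd CD8aa cells in both experiments. Itgax 104308_at had signals of 1693 and 625 in TCRab CD8aa cells, 2233 and 915 in TCRgd CD8aa cells, and 682 and 731 in TCRab CD8ab cells. Both TCRgd CD8aa arrays lay above both TCRab CD8ab arrays, while TCRab CD8aa cells lay above them in experiment 1 and below them in experiment 2. TCRgd CD8aa cells differed from TCRab CD8ab cells by 1.02 ± 0.41 (fold 2.02, 95% interval 1.07 to 3.82; unadjusted p = 0.0332, adjusted p = 0.531), with 1.71 in experiment 1 and 0.32 in experiment 2. TCRab CD8aa cells differed from TCRab CD8ab cells by 0.54 ± 0.41 (adjusted p = 0.698), with 1.31 in experiment 1 and -0.23 in experiment 2. TCRgd CD8aa cells exceeded TCRab CD8aa cells by 0.47 ± 0.41, with 0.40 in experiment 1 and 0.55 in experiment 2.

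Itgax is also a marker of dendritic cells, so markers of macrophages and dendritic cells were set beside it. Their summed signal, over 19 genes on the array, was 4109 and 3062 in TCRab CD8aa cells, 4283 and 5270 in TCRgd CD8aa cells, and 3450 and 3707 in TCRab CD8ab cells. The largest part of that sum on every array was Cst3. It had signals of 1841 and 1564 in TCRab CD8aa cells, 1895 and 1153 in TCRgd CD8aa cells, and 1236 and 1144 in TCRab CD8ab cells. Of these 19 genes, 14 passed the filter on at least 2 arrays. Among all 19, 3 were higher without overlap in TCRgd CD8aa than in TCRab CD8ab cells (H2-Aa, H2-Eb1 and Zbtb46) and 1 was lower (Cd68). Zbtb46 was below the filter on all arrays. Of all tested probe sets, which passed the filter, 9.38% were higher and 10.4% lower without overlap. H2-Eb1, a chain of MHC class II, had signals of 308 and 202 in TCRab CD8aa cells, 375 and 464 in TCRgd CD8aa cells, and 244 and 49.9 in TCRab CD8ab cells. Batf3, a factor of dendritic cells that T cells also express, had signals of 486 and 163 in TCRab CD8aa cells, 405 and 170 in TCRgd CD8aa cells, and 130 and 209 in TCRab CD8ab cells. In experiment 1 Batf3, like Itgax, was higher in both CD8aa subsets than in TCRab CD8ab cells. The other markers of this list were mixed in that experiment. Among them Cd14, Flt3, H2-Eb1 and Cst3 were higher in both CD8aa subsets, while Csf1r, Cd68, Mrc1, Cd74 and H2-Ab1 were lower in both. Itgam, the αM chain of macrophages, was at or near the floor on all 6 arrays, with a highest signal of 16.5. Lyz2, the macrophage lysozyme, had a signal of 303 on the TCRgd CD8aa array of experiment 2 and 5.40 to 11.4 on the others. Their part in the Itgax signal was not tested. Without that array, the blocked difference between TCRgd CD8aa and TCRab CD8ab cells was 1.33 ± 0.55 (adjusted p = 0.799) for Itgax, -2.19 ± 0.85 (adjusted p = 0.640) for Itgal and -1.92 ± 0.80 (adjusted p = 0.806) for Itga4 95292_at. In RefSeq's annotation of GRCm38.p6, Itgax has Itgam and Itgad, the chains of related β2 integrins, as direct neighbours on chromosome 7, and Itgad was not analysed here.

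**Figure D2:**
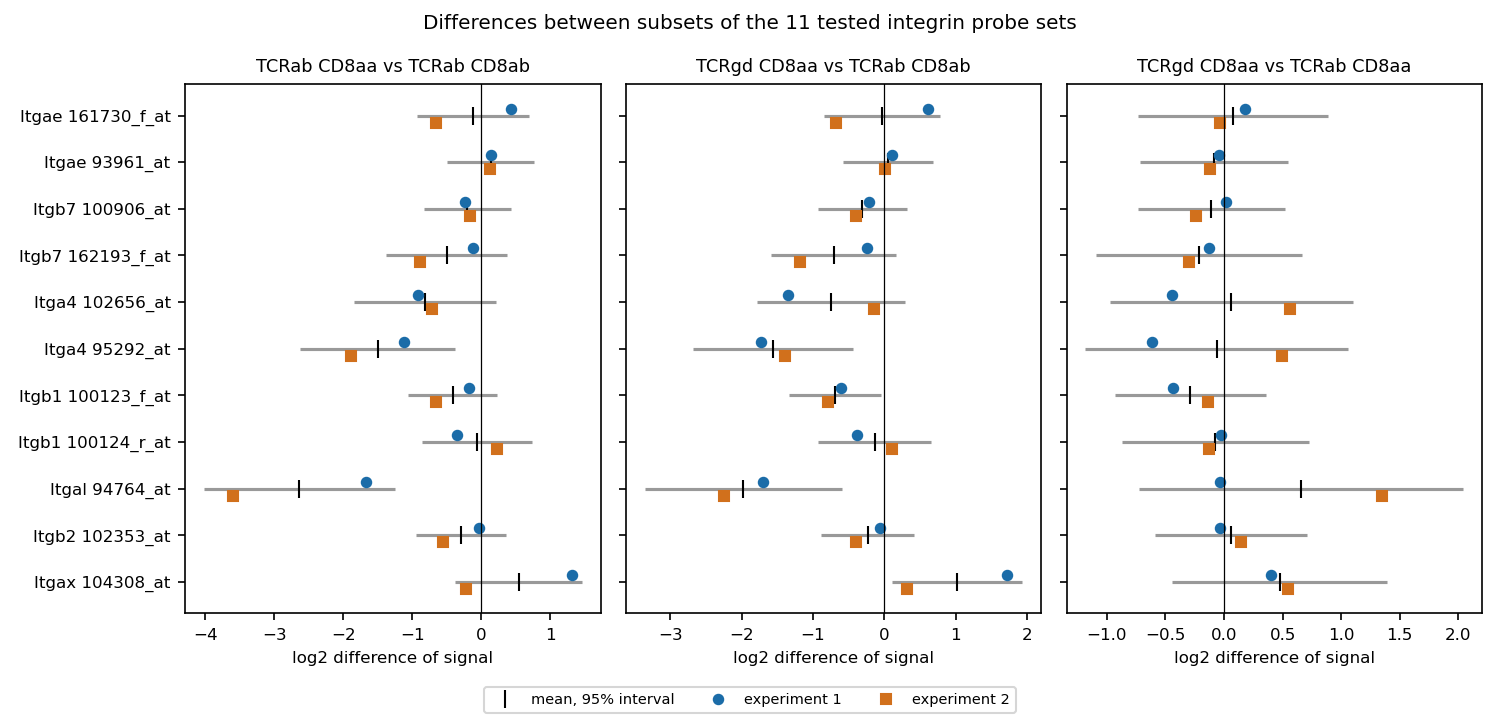
Log2 differences of signal for the 11 tested integrin probe sets in the 3 comparisons, with a circle for experiment 1, a square for experiment 2, a tick for their mean and a line for the 95% interval of limma with the experiment block. Horizontal scales differ between the panels. The intervals of Itgal and Itga4 95292_at lie below 0 against TCRab CD8ab cells in both CD8aa subsets, while in TCRgd CD8aa cells that of Itgb1 100123_f_at also lies below 0 and that of Itgax above 0.

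Over the whole group, 7 of the 11 tested integrin probe sets were lower in TCRab CD8aa than in TCRab CD8ab cells in both experiments, where 30.1% of all tested probe sets were. The same 7 were lower in TCRgd CD8aa than in TCRab CD8ab cells in both experiments, where 28.7% of all probe sets were. They were both probe sets of Itgb7, 2 of Itga4, 1 of Itgb1, Itgal and Itgb2. Higher in both experiments were Itgae 93961_at in TCRab CD8aa cells, and Itgae 93961_at and Itgax in TCRgd CD8aa cells, where the background was 22.8% and 22.9%. In TCRgd CD8aa against TCRab CD8aa cells, 4 of the 11 were lower in both experiments (24.8% of all) and Itgax was higher in both (23.9% of all).

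Signals did not overlap between TCRab CD8aa and TCRab CD8ab cells for 4 integrin probe sets, all lower, where 12.8% of all tested probe sets were lower without overlap. Between TCRgd CD8aa and TCRab CD8ab cells, 5 were lower without overlap against a background of 10.4%, and Itgax was higher against 9.38%. Between TCRgd CD8aa and TCRab CD8aa cells, 0 of the 11 were free of overlap, where 6.64% of all probe sets were lower and 7.78% higher without overlap. Several of these probe sets measure the same gene, so they are not separate observations.

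The median log2 difference over the 11 probe sets was -0.29 for TCRab CD8aa against TCRab CD8ab cells, where the median of all 8301 tested was -0.08. It was -0.31 for TCRgd CD8aa against TCRab CD8ab cells, with -0.06 over all probe sets, and -0.06 for TCRgd CD8aa against TCRab CD8aa cells, with 0.00 over all. At an unadjusted p under 0.05 with the block, 2 of the 11 passed in the first comparison (Itga4 95292_at and Itgal), where 10.1% of all probe sets did. In the second, 4 passed (Itga4 95292_at, Itgb1 100123_f_at, Itgal and Itgax), where 8.22% did. In the third, 0 passed, where 2.08% did. With 2 arrays against 2, an exact permutation test that ignores the pairing by experiment cannot go below p = 0.333.

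Signals were also compared between the experiments. Between experiment 2 and experiment 1, 34.0% of all tested probe sets passed the threshold (limma, adjusted p under 0.05), 20.3% lower and 13.7% higher in experiment 2. Of the 11 integrin probe sets, 4 fell in experiment 2 and 0 rose, where 20.3% of all tested probe sets fell and 13.7% rose. Itgb7 100906_at fell by 1.78 ± 0.23 on the log2 scale (adjusted p = 0.00067), Itgal fell by 1.51 ± 0.50 (adjusted p = 0.0435), Itgb2 fell by 0.93 ± 0.23 (adjusted p = 0.0143) and Itgae 93961_at fell by 0.84 ± 0.23 (adjusted p = 0.0201). The values of these 4 were lower in experiment 2 in all 3 subsets.

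The second probe sets of Itgb7 and Itgae did not move with the first. Itgb7 162193_f_at differed between the experiments by 0.04 ± 0.32 (adjusted p = 0.929) and Itgae 161730_f_at by 0.38 ± 0.29 (adjusted p = 0.343). Itgax differed by -0.88 ± 0.33 (adjusted p = 0.0690), and the values were -1.44 in TCRab CD8aa, -1.29 in TCRgd CD8aa and 0.10 in TCRab CD8ab cells. Itgb1 100123_f_at differed by 0.55 ± 0.23 (adjusted p = 0.1001). Experiment, mouse pool and whatever lies behind the 3′ to 5′ ratio, such as RNA quality or RNA handling, cannot be told apart here. The positions of the probes along the transcripts were not used.

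**Figure D3:**
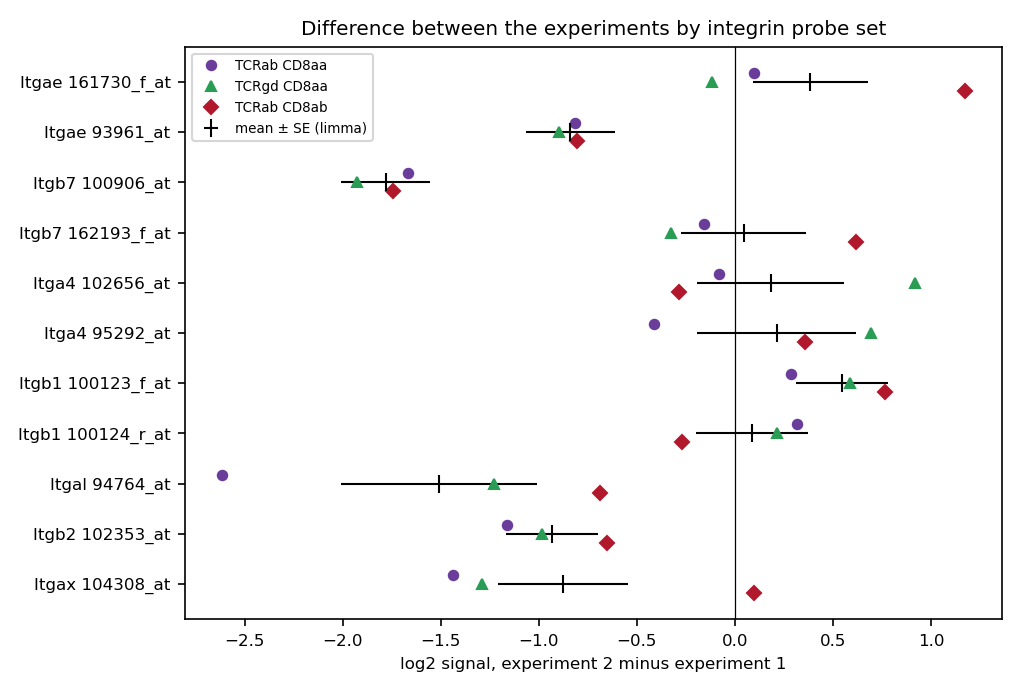
Log2 signal of experiment 2 minus experiment 1 for the 11 tested integrin probe sets, with 1 marker per subset and a tick with a line for the mean ± SE of limma. Itgb7 100906_at lies lowest on average (-1.78), while the other Itgb7 probe set lies near 0 (0.04).

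The other integrin chains of the mouse were looked up in a list of 19 genes, of which the platform annotation gave 11 a probe set on the array and 5 were tested (Itga3, Itga6, Itga7, Itgav and Itgb5). Of these 5, 0 passed the threshold in any of the 3 comparisons, with or without the block. Itgav, the αV chain of receptors for vitronectin and latent TGF-β, came nearest. Itgav 104386_f_at had signals of 4079 and 7835 in TCRab CD8aa cells, 3909 and 6957 in TCRgd CD8aa cells, and 2262 and 2399 in TCRab CD8ab cells. Both CD8aa subsets lay above TCRab CD8ab cells without overlap, by 1.28 ± 0.31 in TCRab CD8aa cells (adjusted p = 0.151) and 1.16 ± 0.31 in TCRgd CD8aa cells (adjusted p = 0.254). The dimmer Itgav 98366_at did not share this, with differences of 0.12 in TCRab CD8aa cells and -0.11 in TCRgd CD8aa cells. The dimmer Itgav 104385_i_at shared it only in TCRgd CD8aa cells. There it had signals of 183 and 166 against 110 and 82.2 in TCRab CD8ab cells, a difference of 0.87 ± 0.54 (adjusted p = 0.720). In TCRab CD8aa cells its difference was -0.01. Below the filter were Itga2, Itga5, Itga8, Itgam, Itgb3 and Itgb4.

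Ligands of these integrins were listed as 11 genes, of which 10 were on the array and 8 were tested. In each comparison, 0 of 8 passed with or without the block, and their median log2 difference was -0.42 for TCRab CD8aa against TCRab CD8ab cells and -0.13 for TCRgd CD8aa against TCRab CD8ab cells. Icam2, a ligand of LFA-1 that lymphocytes themselves carry, had signals of 200 and 145 in TCRab CD8aa cells, 165 and 25.0 in TCRgd CD8aa cells, and 266 and 333 in TCRab CD8ab cells. It was below TCRab CD8ab cells in both CD8aa subsets, with a log2 difference of -0.81 ± 0.68 in TCRab CD8aa cells (adjusted p = 0.729) and -2.21 ± 0.68 in TCRgd CD8aa cells (adjusted p = 0.347). The value in TCRgd CD8aa cells was -0.69 in experiment 1 and -3.74 in experiment 2, whose TCRgd CD8aa array is the one that stood apart. Cdh1, which encodes E-cadherin, the ligand of αEβ7, had signals of 193 and 268 in TCRab CD8aa cells, 187 and 209 in TCRgd CD8aa cells, and 168 and 267 in TCRab CD8ab cells.

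Genes that switch integrins on or tie them to the cytoskeleton were listed as 36, of which 25 were on the array and 22 were tested. Again 0 passed in each comparison with or without the block, with a median of -0.28 in TCRab CD8aa and -0.18 in TCRgd CD8aa cells against TCRab CD8ab cells. Skap2, an adaptor in integrin signalling, had signals of 1929 and 1887 in TCRab CD8aa cells, 1997 and 1680 in TCRgd CD8aa cells, and 1028 and 614 in TCRab CD8ab cells. It was higher in every CD8aa array than in either TCRab CD8ab array, by 1.26 ± 0.31 in TCRab CD8aa cells (adjusted p = 0.148) and 1.20 ± 0.31 in TCRgd CD8aa cells (adjusted p = 0.218). Ptk2b, the kinase Pyk2, differed from TCRab CD8ab cells by 0.84 ± 0.29 in TCRab CD8aa cells (adjusted p = 0.378). Itgb1bp1, which binds the tail of the β1 chain, differed by -0.95 ± 0.41 in TCRgd CD8aa cells (adjusted p = 0.583).

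Genes of tissue residency and of Itgae regulation were listed as 18, of which 15 were on the array and 10 were tested. With the block, 1 fell in each comparison with TCRab CD8ab cells and 0 rose, where 0.819% (TCRab CD8aa) and 0.542% (TCRgd CD8aa) of all probe sets passed, and without it 0 passed. The gene was Klf2, a factor that keeps T cells in circulation, with signals of 36.3 and 11.6 in TCRab CD8aa cells, 17.1 and 12.8 in TCRgd CD8aa cells, and 1038 and 246 in TCRab CD8ab cells. All 4 CD8aa arrays were below the filter of 56.3, so Klf2 was tested only through the TCRab CD8ab arrays, where it was high, and its count is a description. Both CD8aa arrays of experiment 2 were below the floor of 15.3, so its log2 difference of -4.42 ± 0.70 in TCRab CD8aa cells (adjusted p = 0.0252) and -4.96 ± 0.70 in TCRgd CD8aa cells (adjusted p = 0.0171) depends on that floor. With the block, its call was lost when any 1 of the TCRab CD8aa or TCRab CD8ab arrays was left out in the first comparison, and when either TCRab CD8ab array was left out in the second. With every probe set tested, or with no intensity trend in the variance, it was lost in both comparisons.

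Ccr9, the gut homing receptor that acts together with α4β7, differed from TCRab CD8ab cells by -1.40 ± 0.33 in TCRab CD8aa cells (adjusted p = 0.139) and -0.90 ± 0.33 in TCRgd CD8aa cells (adjusted p = 0.501). Prdm1, which encodes the factor Blimp-1 of resident T cells, had signals of 370 and 667 in TCRab CD8aa cells, 424 and 625 in TCRgd CD8aa cells, and 189 and 247 in TCRab CD8ab cells. It lay above TCRab CD8ab cells without overlap, by 1.20 ± 0.35 in TCRab CD8aa cells (adjusted p = 0.254) and 1.25 ± 0.35 in TCRgd CD8aa cells (adjusted p = 0.280). Runx3, a regulator of Itgae in T cells, and Cd69 were not analysed here.

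Other adhesion and tetraspanin genes were listed as 21, of which 18 were on the array and 17 were tested. With the block, 1 of them fell in both comparisons with TCRab CD8ab cells and 0 rose, against the same shares of 0.819% and 0.542% of all probe sets, and without it 0 passed. The gene was Cd2, an adhesion receptor that binds Cd48 in the mouse, with signals of 262 and 282 in TCRab CD8aa cells, 16.6 and 101 in TCRgd CD8aa cells, and 3323 and 3171 in TCRab CD8ab cells. Its log2 difference was -3.58 ± 0.61 in TCRab CD8aa cells (adjusted p = 0.0330) and -6.31 ± 0.61 in TCRgd CD8aa cells (adjusted p = 0.00229). The value in TCRgd CD8aa cells was -7.65 in experiment 1, where the signal of 16.6 is close to the floor of 15.3, and -4.97 in experiment 2, so its size is limited by background. Its call in TCRab CD8aa cells was lost with the block when the TCRab CD8aa array of experiment 2 or either TCRab CD8ab array was left out, and in both CD8aa subsets without the filter or the intensity trend. Cd151, a tetraspanin that binds β1 integrins, had signals of 84.1 and 34.2 in TCRab CD8aa cells, 301 and 337 in TCRgd CD8aa cells, and 289 and 524 in TCRab CD8ab cells. TCRab CD8aa cells were the lowest in both experiments, at -2.86 ± 0.54 against TCRab CD8ab cells (adjusted p = 0.0568), while TCRgd CD8aa and TCRab CD8ab cells overlapped. Cd44, which binds hyaluronan, differed from TCRab CD8ab cells by -2.44 ± 0.59 in TCRab CD8aa cells (adjusted p = 0.140) and -1.76 ± 0.59 in TCRgd CD8aa cells (adjusted p = 0.409).

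**Figure D4:**
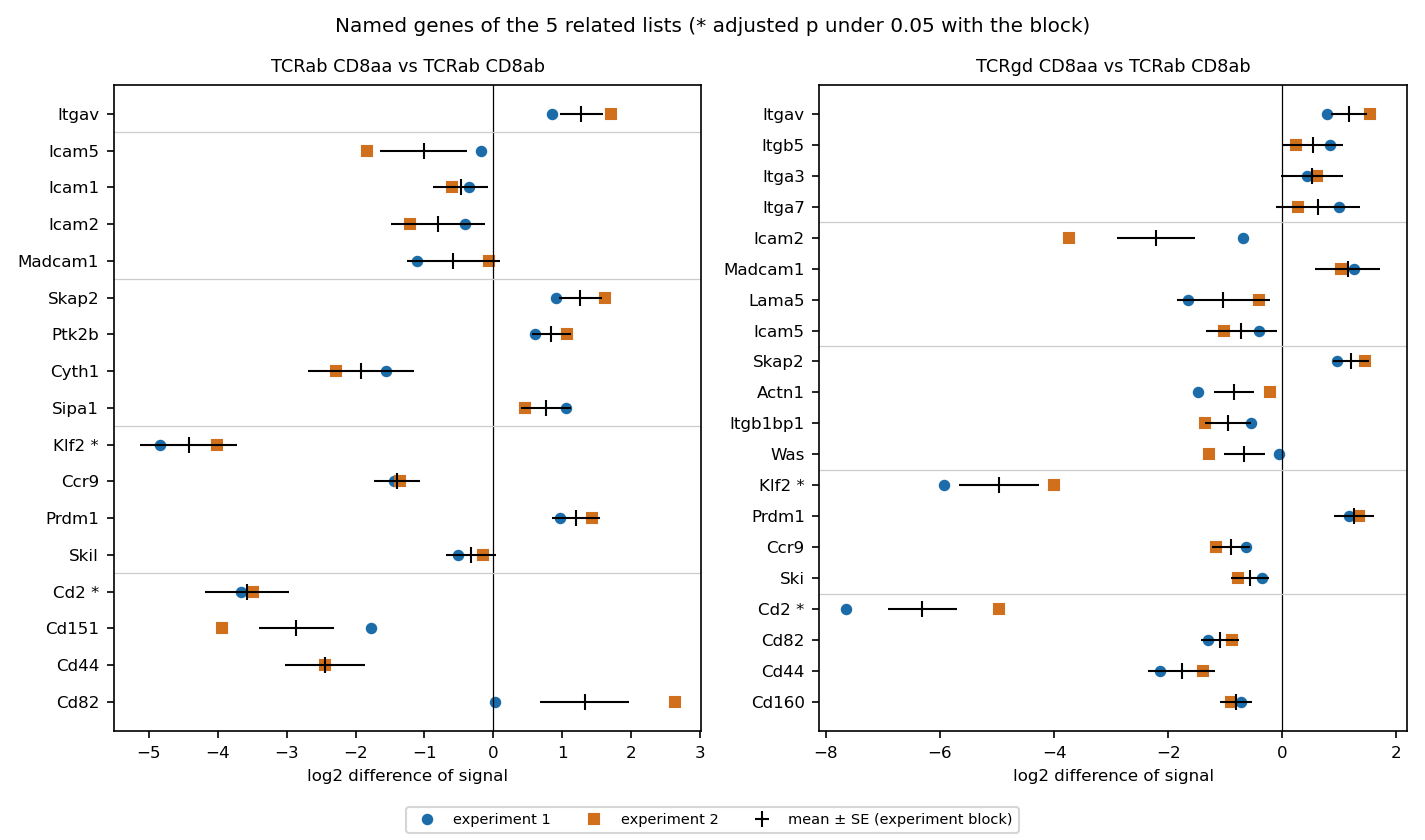
Log2 differences of signal from TCRab CD8ab cells for the named genes of the 5 related lists, in TCRab CD8aa cells (left) and TCRgd CD8aa cells (right), with a circle for experiment 1, a square for experiment 2 and a tick with a line for the mean ± SE of limma with the experiment block. Grey lines part the lists (other integrin chains, ligands, activators and adaptors, residency, other adhesion genes), and only Klf2 and Cd2 carry the asterisk of an adjusted p under 0.05.

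For each member, the genes with the most similar pattern were taken by Pearson's r over the 6 arrays, on log2 signals less the mean of their experiment, for its brightest tested probe set. These values share arrays and have few degrees of freedom, so many probe sets come close: between 107 for Itga4 and 584 for Itgb2 had an r above 0.9. The nearest to Itgae were Sema4d (r = 0.999), Itm2c (r = 0.998) and Krt4 (r = 0.997). The nearest to Itgb7 was Prim1 (r = 0.999), to Itga4 was 2610001J05Rik (r = 0.994) and to Itgb1 was Prkcb (r = 0.999). The nearest to Itgal were Gadd45b (r = 0.997), Abhd8 (r = 0.997) and St3gal6 (r = 0.996). The nearest to Itgb2 was Mmp2 (r = 0.999), and to Itgax it was Preb (r = 0.999). None of these nearest genes was another of the 7 integrin members.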

How the data were processed

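Messenger RNA of 3 sorted subsets of mouse intraepithelial lymphocytes was measured on 6 Affymetrix arrays. What the authors deposited is a linear signal intensity for each probe set and array, made with MAS5, which the submitters' processing notes name without a version. Arrays were rescaled here to a common mean trimmed by 2% at each end, by factors of 0.999915 to 1.00006. Detection calls were not used. Of 12488 probe sets, 66 were controls, 10833 had 1 gene symbol, 396 several and 1193 none in the platform annotation. Signals under the 20th percentile of all values (15.3) were set to it, log2 was taken, and probe sets above the 40th percentile (56.3) on at least 2 arrays were tested.

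Fits used limma 3.58.1 in R 4.3.3, with the intensity trend, on all 6 arrays. They were also run on simulated data with changes added only to brighter probe sets, which leaves out levels as dim as that of Itgal. Replicate numbers name the experiment, and the design text states that each experiment used a new pool of 20 mice for all 3 subsets, so the numbers pair the arrays. Deviations from the subset means correlated with r = 0.713, 0.618 and 0.603 between subsets. The main design had no block and so left out the pairing of the arrays by experiment. The fit that takes the experiment as a block follows that pairing. It is printed beside the main one and moves the counts of calls. P-values without the block measure the spread between the 2 arrays of a subset, which come from different pools. Those with the block measure how far the differences between subsets vary from experiment to experiment. Neither measures the spread between mice, and the number of arrays limits the precision. At most 45 values were equal between any 2 arrays.

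Members and lists were chosen with earlier results of these data known. Named genes were all member probe sets, of each list and comparison up to 4 genes with the smallest p with the block and the same sign in both experiments, and the 3 most similar genes of each member, of which the text prints a part. A gene named from a list is given by its probe set with the smallest such p, and other probe sets of it can differ.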

Additional observations from a re-analysis of the deposited data

How the results depend on the processing

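Without the block, every setting tried called 0 probe sets in all 3 comparisons, also with 1 array left out. With the replicate block, which follows the pairing of the arrays by experiment, the calls were 68 for TCRab CD8aa against TCRab CD8ab cells, 45 for TCRgd CD8aa against TCRab CD8ab cells and 2 for TCRgd CD8aa against TCRab CD8aa cells. In the same order of comparisons, the blocked counts were 72, 50 and 1 with quantile normalization, 67, 46 and 2 with the floor at the 30th percentile, and 6, 3 and 1 without the intensity trend. They were 109, 63 and 2 at an adjusted p under 0.10, 169, 50 and 2 with only the arrays of the groups compared, and 0 in each without the filter. Leaving out 1 array, with or without the block, gave 0 to 182, 0 to 193 and 0 to 114 calls.

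The count of integrin probe sets called was 0 under all of these settings but 3, all with the block and all for TCRab CD8aa against TCRab CD8ab cells. It was 1 (Itgal) with only the 4 arrays compared, and 0 to 1 when 1 array was left out. Of the 33 integrin differences, 2 turned sign under quantile normalization, with or without the block, both by small amounts: Itgb1 100124_r_at to 0.0028 between TCRab CD8aa and TCRab CD8ab cells, and Itgae 161730_f_at to 0.00058 between TCRgd CD8aa and TCRab CD8ab cells. Leaving out 1 array turned 22 of the 33 in at least 1 fit and 13 with the block. Without the block, a left-out array leaves a subset in 1 experiment, so the difference between experiments enters the value. The ranges of those that turned, for TCRab CD8aa against TCRab CD8ab cells, were Itgae 161730_f_at -0.70 to 0.48, Itgae 93961_at -0.27 to 0.55, Itgb7 100906_at -1.07 to 0.67, Itgb1 100124_r_at -0.33 to 0.21, Itgb2 102353_at -0.87 to 0.29 and Itgax 104308_at -0.19 to 1.27. For TCRgd CD8aa against TCRab CD8ab cells they were Itgae 161730_f_at -0.63 to 0.55, Itgae 93961_at -0.39 to 0.50, Itgb7 100906_at -1.27 to 0.66, Itgb1 100124_r_at -0.40 to 0.13 and Itgb2 102353_at -0.73 to 0.26. For TCRgd CD8aa against TCRab CD8aa cells they were Itgae 161730_f_at -0.30 to 0.45, Itgae 93961_at -0.53 to 0.37, Itgb7 100906_at -1.07 to 0.86, Itgb7 162193_f_at -0.49 to 0.068, Itga4 102656_at -0.49 to 0.61, Itga4 95292_at -0.53 to 0.41, Itgb1 100123_f_at -0.58 to 0.0069, Itgb1 100124_r_at -0.25 to 0.098, Itgal 94764_at -0.65 to 1.97, Itgb2 102353_at -0.52 to 0.64 and Itgax 104308_at -0.24 to 1.19. The differences of Itga4 and Itgal from TCRab CD8ab cells kept their sign in all of these settings, but their size moved when 1 array was left out. In TCRab CD8aa cells the ranges were -3.94 to -1.33 for Itgal, -1.96 to -1.03 for Itga4 95292_at and -1.17 to -0.46 for Itga4 102656_at, and in TCRgd CD8aa cells -2.59 to -1.36, -1.92 to -1.19 and -1.30 to -0.20. Itgax in TCRgd CD8aa against TCRab CD8ab cells ranged over 0.29 to 1.75 and Itgb1 100123_f_at over -1.08 to -0.31. Settings for Klf2 and Cd2 were added after seeing the data. In 12 settings with the block, Klf2 passed in 6 in TCRab CD8aa and 8 in TCRgd CD8aa cells against TCRab CD8ab cells, and Cd2 passed in 7 and 10. Signals near the floor, such as those of Itgal in CD8aa cells in experiment 2, are limited by the background of the arrays.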
